A study of Mus musculus with 32 samples.

Results

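The genes described here encode the proteins of the mitochondrial ribosome. They were taken as every array probe whose platform gene symbol starts with Mrpl or Mrps (names given for the large and the small subunit) followed by a digit, which gave 110 of the 25697 probes and 76 of the 16593 named genes. Of these genes, 47 carry an Mrpl symbol and 29 an Mrps symbol. Expression was measured in hippocampus and gastrocnemius muscle of female C57BL/6J mice aged 23 months. The mice had received AICAR at 500 mg per kg and day by intraperitoneal injection for 3, 7 or 14 days, or the saline vehicle for 3 days, and both tissues were collected 33 days after dosing ended, following perfusion with saline. AICAR is a nucleoside that cells convert to an AMP analogue, which activates AMP-activated protein kinase. Each tissue and treatment has 4 arrays, 32 in all, and only aged females were profiled. Because saline was given for 3 days alone, the number of injections and AICAR cannot be told apart at 7 and 14 days. The labels state neither that replicates are separate mice nor that both tissues came from the same mice, so p-values measure the spread between arrays.

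Mitochondria carry their own ribosome, which translates the few messages of mitochondrial DNA into subunits of the respiratory chain. Its ribosomal RNAs come from mitochondrial DNA, whereas all of its proteins are encoded in the nucleus, made in the cytosol and imported. Some have bacterial counterparts, and others exist only in mitochondria. Muscle fibres and neurons both depend on oxidative phosphorylation, and inherited defects of several of these proteins cause disease of heart, muscle, liver or brain in humans.

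RefSeq lists 78 protein-coding mouse genes under the same naming rule, and 76 of them were on the array, with Mrpl41 and Mrpl44 not analysed here. A probe was tested in a tissue when its detection p-value was below 0.05 on at least 4 of the 16 arrays, and the brightest tested probe stands for a gene. That left 95 probes of 70 genes in hippocampus and 97 probes of 70 genes in muscle, with 69 genes tested in both. Mrpl19, Mrpl21, Mrpl32, Mrps14 and Mrps36 were tested in neither tissue, Mrpl39 only in muscle and Mrpl15 only in hippocampus. Of the 110 probes, 88 were detected on all 32 arrays.

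The promoters were examined for sites of factors known to regulate nuclear genes for mitochondrial proteins. RefSeq promoter windows of 300 bases (250 before and 50 after the start site, GRCm38.p6) were at hand for 67 of the 76 genes. The letters CCGGAAG, the core bound by GABPA (nuclear respiratory factor 2) and other ETS factors, occurred on either strand in 26 windows (38.8%), against 12.9% of the windows of 17492 protein-coding genes. The palindrome bound by NRF1, printed in capitals in Mrpl39, occurred in 3 windows (4.48% against 1.47%). The same letters with any base in the fifth place, as in Mrps21, occurred in 12 (17.9% against 7.17%), which includes the former. The letters bound by YY1 occurred in 5 windows (7.46% against 1.06%), and TCAAGGTCA, bound by oestrogen-related receptors, in 0 of 67 against 0.377%. The shares are descriptions that were not tested. Promoter parts of 4 genes whose messages were higher in a tissue after AICAR are printed 5′ to 3′ on the gene's strand, with the matched letters in capitals: the ETS core of Mrps27 (chr13:99344679-99344766, plus strand) and of Mrpl52 (chr14:54426659-54426908, plus strand), read here as CTTCCGG, and the NRF1 letters of Mrps21 (chr3:95871515-95871764, minus strand) and of Mrpl39 (chr16:84735245-84735494, minus strand). All 4 lie upstream of the gene's start site, that of Mrps27 between it and Ptcd2, and that of Mrps21 overlaps a long non-coding RNA gene in RefSeq. The windows of Mrpl16, Mrpl55, Mrpl20 and Mrps15, whose messages also rose, held none of the letters searched. Among genes called lower in hippocampus at 7 or 14 days, the ETS core occurred in Mrps12, Mrps23, Mrpl53, Mrpl57 and Mrpl58. The NRF1 palindrome occurred in Mrpl9, its form with an open base also in Mrpl14, Mrpl30 and Mrpl57, and the YY1 letters in Mrpl35. The windows of Mrpl49, Mrps24, Mrpl20, Mrpl23 and Mrps7, also called lower there, held none of the letters. Whether the letters go with the direction of change was not tested, and the rise of Mrpl39 is itself a description without a test.
Mrps27: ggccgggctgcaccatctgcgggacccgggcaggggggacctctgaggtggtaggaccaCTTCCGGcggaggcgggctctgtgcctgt
Mrps21: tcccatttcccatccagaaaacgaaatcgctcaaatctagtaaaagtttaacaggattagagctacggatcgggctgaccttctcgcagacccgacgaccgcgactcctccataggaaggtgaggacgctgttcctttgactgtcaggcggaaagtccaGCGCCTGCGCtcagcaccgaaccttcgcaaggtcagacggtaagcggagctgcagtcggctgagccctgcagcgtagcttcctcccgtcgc
Mrpl52: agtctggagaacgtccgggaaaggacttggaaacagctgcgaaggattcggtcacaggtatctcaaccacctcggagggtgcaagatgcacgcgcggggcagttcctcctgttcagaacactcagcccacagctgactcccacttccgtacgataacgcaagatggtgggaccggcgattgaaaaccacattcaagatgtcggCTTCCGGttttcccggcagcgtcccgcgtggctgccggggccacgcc
Mrpl39: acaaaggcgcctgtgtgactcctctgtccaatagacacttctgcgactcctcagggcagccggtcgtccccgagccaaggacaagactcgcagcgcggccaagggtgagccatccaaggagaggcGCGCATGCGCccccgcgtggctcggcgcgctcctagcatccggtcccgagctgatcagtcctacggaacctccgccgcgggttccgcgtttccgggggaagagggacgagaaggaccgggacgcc

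For 23 of the 67 genes (34.3%), a gene read away in the opposite direction (head to head) started within 1000 bases upstream of the start site. The share was 8.48% of all protein-coding genes. Mrps27 lay 108 bases from the start of Ptcd2, Mrps18c 159 bases from Helq and Mrps12 147 bases from Sars2, the mitochondrial seryl-tRNA synthetase. The start sites of Mrps11 and Mrpl46, which give 1 protein to each subunit, lay 42 bases apart.

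Before the results, the sets that the arrays formed have to be stated. The first principal component (36% of the variance among hippocampal arrays and 44.9% among muscle arrays) separated saline and 3 days from 7 and 14 days. The background signal, taken on each array as the median over probes with a detection p-value above 0.5, averaged 122.4 and 117.6 units in hippocampus after saline and 3 days, and 158.7 and 150 after 7 and 14 days. In muscle it was 128.9 and 119 against 164.1 and 147.4. The running numbers in the sample labels go in 4 blocks of 8, each holding both tissues of 1 treatment, so any effect of working through these blocks and the treatment cannot be told apart. The summed signal of 9 skeletal muscle markers in muscle ran from 294542 to 323981 over the saline and 3-day arrays and from 326543 to 343409 over the 7- and 14-day arrays. In hippocampus 3 nerve-sheath markers, 2 of them detected, summed to 359 to 448 after saline and 362 to 415 after 3 days, against 525 to 545 and 487 to 561 after 7 and 14 days. The 2 detected were Pmp22 and S100b, and S100b also stands among the astrocyte markers. The hippocampal sum of 7 choroid plexus markers overlapped among all groups (2840 to 34426 after saline, 5554 to 43088, 4348 to 41154 and 33269 to 43297 after 3, 7 and 14 days). Other sums did not overlap with saline at 7 or 14 days without separating all the groups. In hippocampus these were the neuronal sum at 7 days (39007 to 43171 against 43248 to 44561) and that of 6 adipocyte markers, 2 of them detected, at 7 and 14 days (201 to 225 against 238 to 259). In muscle they were endothelial markers at 14 days (3809 to 4011 against 4268 to 4589) and macrophage markers at 7 days (575 to 1153 against 1185 to 1332). The sum of 7 choroid plexus markers, of which only Calml4 and Aqp1 were tested in muscle, was also apart at 7 and 14 days (7698 to 9066 against 7243 to 7511). The part of these differences in the results was not tested. Neuronal markers were present in hippocampus (5 of 8 detected, Tubb3, Snap25 and Nefl not), all 9 muscle markers were detected in muscle, and Ckm, Myh1, Myh4 and Tnnt3 were undetected in hippocampus.

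After 3 days of AICAR, none of the 70 genes passed the test in either tissue, and 0% of all genes were called in both. In hippocampus 4 of the 70 genes had an unadjusted p below 0.05 (533 of all 9534 genes), and in muscle 10 of 70 (1012 of all 9030). The lowest p values in hippocampus were those of Mrpl16 (log2 change 0.41 ± 0.10 SE), Mrps27 (0.45 ± 0.13) and Mrpl35 (−0.33 ± 0.14), with limma adjusted p of 0.369, 0.555 and 0.8. In muscle they were those of Mrps26 (0.21 ± 0.07), Mrpl55 (0.26 ± 0.09) and Mrps11 (0.30 ± 0.11), with adjusted p of 0.315, 0.323 and 0.348.

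After 7 and 14 days, messages for mitoribosomal proteins moved in both directions in hippocampus. At 7 days 16 of the 70 genes rose and 12 fell, where 27.5% of all genes were called (12.1% higher and 15.4% lower). At 14 days 16 rose and 11 fell, where 30.1% of all genes were called (12.6% higher and 17.5% lower). The arrays of the groups did not overlap for 30 genes at 7 days (31% of all genes) and for 33 at 14 days (32.8% of all genes). The medians of the 70 genes were −0.04 on the log2 scale at both times, beside −0.05 and −0.06 over all genes. By symbol, 7 of 27 Mrps genes rose and 3 fell at 7 days, and 9 of 43 Mrpl genes rose and 9 fell. At 14 days 7 Mrps genes were higher and 4 lower, and 9 Mrpl genes higher and 7 lower. The symbol does not always give the subunit, since Mrps18a and Mrps30 sit in the large one. The 2 comparisons share the saline arrays, so each is given with its own values. The directions depend on the scaling: when arrays were scaled to a common median rather than quantile normalized, the median over all genes became 0.17 at 7 days and 0.05 at 14 days, and 23 genes were higher and 0 lower at 7 days, and 12 higher and 0 lower at 14 days. Shares of all genes called under median scaling are not given here or below. Such counts are therefore not read as a result about the members.

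**Figure D1:**
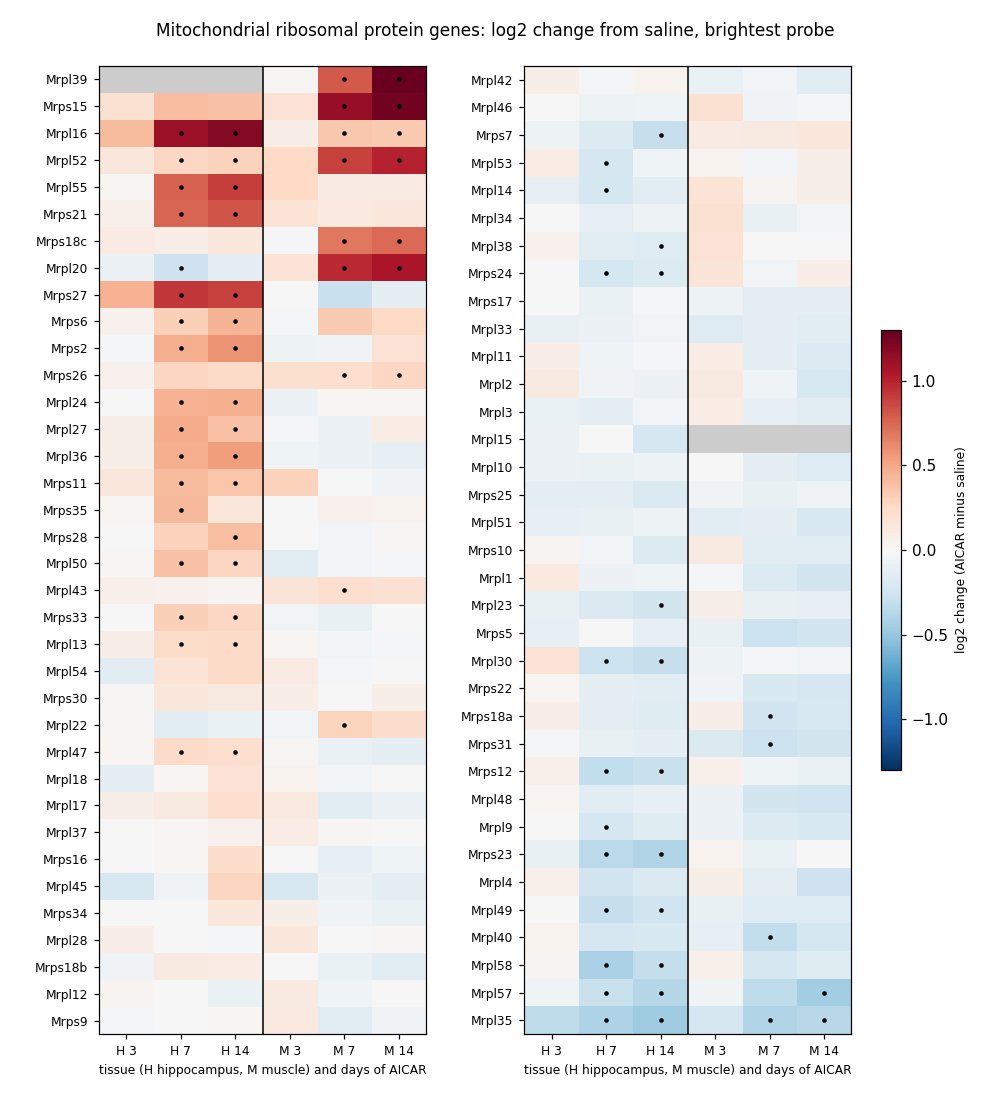
Heat map of the log2 change from saline of the brightest probe of each of 71 genes, in hippocampus (H) and muscle (M) after 3, 7 and 14 days of AICAR, with a dot where the change passed the test and grey where the gene was not tested. No gene has a dot at 3 days, and at 7 days 28 genes carry one in hippocampus and 13 in muscle. The muscle dots at 7 and 14 days include Mrpl39, whose differences are a description without a test.

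Mrpl16, a large-subunit protein near the site of peptide bond formation, had the largest rise in hippocampus. Its log2 signal was 7.07, 6.91, 6.85 and 6.84 on the saline arrays, 7.20, 7.28, 7.69 and 7.16 after 3 days, 7.97, 8.04, 8.04 and 8.05 after 7 days, and 8.15, 8.11, 8.02 and 8.13 after 14 days. Every 7- and 14-day array lay above every saline and 3-day array. The log2 change was 1.11 ± 0.10 at 7 days (2.15-fold, limma adjusted p = 1.34e-05) and 1.19 ± 0.10 at 14 days (2.27-fold, adjusted p = 6.4e-06).

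Mrps27, a small-subunit protein with pentatricopeptide repeats and no bacterial counterpart, had the next largest rise at 7 days. It measured 6.08, 6.10, 6.12 and 6.40 after saline, 6.46, 6.28, 6.99 and 6.80 after 3 days, 7.03, 7.26, 6.99 and 7.10 after 7 days, and 7.22, 7.00, 7.01 and 7.05 after 14 days. All 8 arrays of 7 and 14 days were above all saline arrays, and the lowest of them equalled the highest 3-day array at 6.99. The changes were 0.92 ± 0.13 (1.89-fold, adjusted p = 0.000197) and 0.89 ± 0.13 (1.86-fold, adjusted p = 0.000214).

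Mrpl55, a large-subunit protein found only in mitochondria of animals, read 7.82, 7.69, 7.59 and 7.66 after saline, 7.08, 7.66, 8.21 and 7.96 after 3 days, 8.45, 8.52, 8.35 and 8.51 after 7 days, and 8.65, 8.53, 8.45 and 8.74 after 14 days. The 3-day arrays were the most scattered and straddled saline, and the later groups were above both. It changed by 0.77 ± 0.17 (adjusted p = 0.00403) and 0.90 ± 0.17 (adjusted p = 0.00122).

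Mrps21, a small-subunit protein, read 9.21, 9.36, 9.50 and 9.41 after saline, 9.54, 9.40, 9.51 and 9.29 after 3 days, 10.13, 10.17, 10.17 and 10.06 after 7 days, and 10.02, 10.27, 10.27 and 10.22 after 14 days. Saline and 3 days overlapped, and both lay below all later arrays. The changes were 0.76 ± 0.08 (1.7-fold, adjusted p = 2.69e-05) and 0.82 ± 0.08 (1.77-fold, adjusted p = 1.38e-05).

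Smaller rises with groups that did not overlap were seen in 3 more genes with known places in the ribosome. Mrpl27, close to the peptidyl transferase centre in bacteria, read 10.05, 10.02, 10.04 and 9.96 after saline and 10.40, 10.43, 10.55 and 10.63 after 7 days, a change of 0.48 ± 0.07 (adjusted p = 0.000246), and 0.38 ± 0.07 at 14 days (adjusted p = 0.00114). Mrpl36, a small protein of the large subunit, read 9.86, 9.97, 9.73 and 9.92 after saline and 10.26, 10.33, 10.30 and 10.48 after 7 days, with changes of 0.47 ± 0.09 (adjusted p = 0.00203) and 0.54 ± 0.09 (adjusted p = 0.000731). Mrps2, a small-subunit protein, read 6.33, 6.21, 6.36 and 6.60 after saline and 6.76, 7.00, 6.78 and 6.85 after 7 days, with changes of 0.47 ± 0.11 (adjusted p = 0.00613) and 0.58 ± 0.11 (adjusted p = 0.00153). The other genes that rose at both times were Mrpl13, Mrpl24, Mrpl47, Mrpl50, Mrpl52, Mrps11, Mrps33 and Mrps6, by 0.22 to 0.46. Mrps35 rose at 7 days only and Mrps28 at 14 days only, and the difference between these durations passed for 0 genes.

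The falls were shallower. Mrps12, the small-subunit protein that tunes decoding accuracy, read 11.65, 11.50, 11.60 and 11.47 after saline, 11.59, 11.68, 11.60 and 11.64 after 3 days, 11.17, 11.14, 11.36 and 11.25 after 7 days, and 11.32, 11.30, 11.27 and 11.18 after 14 days. No array of the later groups reached the saline or 3-day arrays. The log2 change was −0.32 ± 0.07 (0.799-fold, adjusted p = 0.00317) and −0.29 ± 0.07 (0.819-fold, adjusted p = 0.00581).

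Mrps23, a small-subunit protein specific to mitochondria, read 9.62, 9.44, 9.63 and 9.65 after saline, 9.42, 9.50, 9.41 and 9.59 after 3 days, 9.17, 9.23, 9.24 and 9.32 after 7 days, and 9.32, 9.10, 9.21 and 9.16 after 14 days. The later groups again lay below every earlier array. The changes were −0.35 ± 0.07 (adjusted p = 0.003) and −0.39 ± 0.07 (adjusted p = 0.00126). Mrpl58, a peptidyl-tRNA hydrolase (also called Ict1) that is built into the large subunit and can release stalled chains, read 8.42, 8.40, 8.68 and 8.59 after saline and 8.25, 8.06, 7.93 and 8.16 after 7 days. It fell by 0.42 on the log2 scale (SE 0.10, adjusted p = 0.00471), and at 14 days the change was −0.31 (adjusted p = 0.0227).

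Mrpl35, Mrpl57, Mrpl30, Mrpl49 and Mrps24 were also called lower at both times. Mrpl14, Mrpl20, Mrpl53 and Mrpl9 were called lower at 7 days only, and Mrpl23, Mrpl38 and Mrps7 at 14 days only. Mrpl35 read 7.47, 7.53, 7.44 and 7.54 after saline, 7.18, 7.11, 7.26 and 6.81 after 7 days and 7.23, 7.08, 7.03 and 6.81 after 14 days, with no overlap. Its changes were −0.40 ± 0.14 (adjusted p = 0.0395) and −0.46 ± 0.14 (adjusted p = 0.0207), and at 7 days the call was lost on leaving out any array but 7-day replicate 3 (−0.46 to −0.31). With median scaling none of Mrps12, Mrps23, Mrpl35 and Mrpl58 passed, with changes of −0.12, −0.07, −0.12 and −0.10 at 7 days, and Mrpl57 turned to 0.01, whereas Mrpl16, Mrps27, Mrpl55 and Mrps21 rose by 1.41, 1.16, 1.08 and 1.05.

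**Figure D2:**
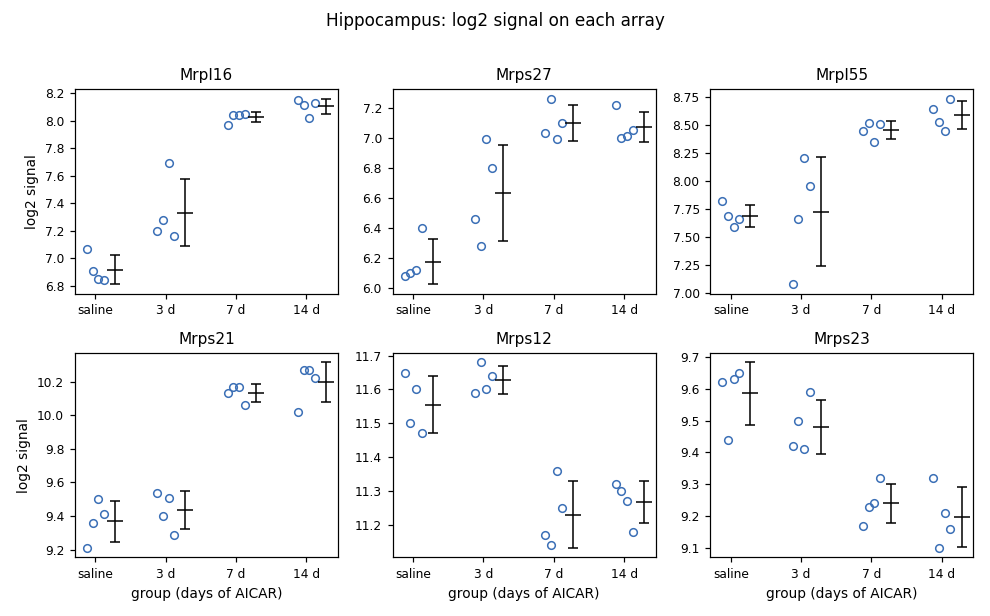
Log2 signal on each hippocampal array (circles) with the group mean and SD (bars, n = 4) after saline and after 3, 7 and 14 days of AICAR for 6 genes. Mrpl16, Mrps27, Mrpl55 and Mrps21 are higher, and Mrps12 and Mrps23 lower, on every 7- and 14-day array than on every saline array.

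Several members with well-known roles did not pass in hippocampus. Mrpl12 and Mrpl11, of the stalk that recruits translation factors and of its base, changed by 0.00 and −0.06 at 7 days and by −0.09 and −0.03 at 14 days. Mrpl3, Mrps16 and Mrps22, each mutated in human mitochondrial disease, changed by −0.12 ± 0.08, 0.03 ± 0.11 and −0.12 ± 0.09 at 7 days and by −0.04, 0.23 and −0.14 at 14 days. Mrps7, which organizes the head of the small subunit in bacteria, changed by −0.18 at 7 days (adjusted p = 0.0869) and by −0.30 ± 0.08 at 14 days (adjusted p = 0.00879). The paralogs Mrps18a, Mrps18b and Mrps18c changed by −0.12, 0.12 and 0.09 at 7 days and by −0.16, 0.10 and 0.14 at 14 days, none past the threshold.

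Comparing durations directly, 0 of the 70 hippocampal genes differed between 14 and 7 days (background 0%; 2 genes had an unadjusted p below 0.05, and 285 of all genes). Between the mean of 7 and 14 days and 3 days, 15 were higher and 14 lower, where 34.7% of all genes were called (14.5% higher and 20.2% lower). Against the 3-day arrays Mrps21 rose by 0.73 ± 0.07 (adjusted p = 7.32e-06) and Mrpl16 by 0.73 ± 0.09 (adjusted p = 2.87e-05), while Mrpl30, a large-subunit protein, fell by 0.48 on the log2 scale (adjusted p = 0.000127). Mrps12 fell by 0.38 (adjusted p = 0.00027). With median scaling this split was 33 higher and 0 lower, without the share of all genes beside it.

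In muscle the largest rises were those of Mrps15, Mrpl20, Mrpl52 and Mrps18c, beside Mrpl39 near the detection limit. At 7 days 9 of 70 rose and 4 fell, where 18.8% of all genes were called (10.3% higher and 8.55% lower). At 14 days 7 rose and 2 fell, where 17.9% were called (10.4% higher and 7.48% lower). Without Mrpl39 the rises were 8 and 6. The arrays did not overlap for 14 genes at 7 days (22.7% of all genes) and for 17 at 14 days (22.3% of all genes). The medians were −0.06 and −0.05, beside −0.07 and −0.08 over all genes. The count is sensitive to single arrays: at 7 days it was 6 without saline replicate 2, 7 without 7-day replicate 1, and 8 without saline replicate 1 or replicate 4, and at 14 days it was 5 without saline replicate 1. With median scaling the median over all genes became −0.24 and −0.25, and 5 genes were higher and 18 lower at 7 days and 5 higher and 26 lower at 14 days. With the deposited series values the counts were 8 and 12 at 7 days and 10 and 15 at 14 days. Shares of all genes called under these settings are not given here, so these counts are not read as a result about the members.

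Mrps15, a small-subunit protein that binds ribosomal RNA early in bacterial assembly, read 8.50, 8.51, 8.67 and 8.09 after saline, 8.65, 8.95, 8.57 and 8.34 after 3 days, 9.63, 9.62, 9.65 and 9.41 after 7 days, and 9.46, 9.83, 9.74 and 9.75 after 14 days. All later arrays lay above all earlier ones. The log2 change was 1.13 ± 0.14 at 7 days (2.19-fold, adjusted p = 1.01e-05) and 1.25 ± 0.14 at 14 days (2.38-fold, adjusted p = 3.04e-06).

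Mrpl20, whose bacterial counterpart is needed to assemble the large subunit, read 9.39, 9.49, 9.55 and 9.36 after saline, 9.63, 9.57, 9.58 and 9.72 after 3 days, 10.55, 10.42, 10.31 and 10.42 after 7 days, and 10.34, 10.69, 10.38 and 10.63 after 14 days. The 2 sets of groups were separated by more than the range within either. The changes were 0.97 ± 0.09 (1.97-fold, adjusted p = 5.9e-07) and 1.06 ± 0.09 (2.08-fold, adjusted p = 2.03e-07).

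Mrpl52, a large-subunit protein specific to mitochondria, read 9.27, 9.42, 9.80 and 9.54 after saline, 9.70, 9.83, 9.78 and 9.77 after 3 days, 10.35, 10.45, 10.33 and 10.45 after 7 days, and 10.58, 10.61, 10.45 and 10.39 after 14 days. The later groups lay above all earlier arrays. The changes were 0.89 ± 0.10 (1.85-fold, adjusted p = 4.22e-06) and 1 ± 0.10 (2-fold, adjusted p = 1.01e-06).

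Mrps18c, 1 of the 3 paralogs of a bacterial small-subunit protein, read 10.48, 10.43, 10.61 and 10.37 after saline, 10.41, 10.46, 10.49 and 10.46 after 3 days, 11.12, 11.11, 11.21 and 11.21 after 7 days, and 11.26, 11.30, 11.20 and 11.12 after 14 days. It rose by 0.69 ± 0.07 (1.61-fold, adjusted p = 2.41e-06) and 0.74 ± 0.07 (1.68-fold, adjusted p = 9.38e-07). Its paralog Mrps18b did not pass (−0.09 and −0.15). Mrps18a, which sits in the large subunit despite its name, read 11.10, 11.16, 11.23 and 11.21 after saline and 10.89, 10.84, 11.04 and 10.95 after 7 days, a change of −0.25 (adjusted p = 0.029), and −0.21 at 14 days (adjusted p = 0.0642).

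Mrpl39, a large-subunit protein, was near the detection limit: it was detected on 1 of 4 saline arrays, 0 of 4 at 3 days, 3 of 4 at 7 days and 4 of 4 at 14 days. It read 4.79, 4.89, 5.33 and 5.08 after saline, 4.81, 5.28, 5.02 and 5.07 after 3 days, 6.48, 5.80, 5.72 and 5.31 after 7 days, and 6.31, 6.35, 6.32 and 6.22 after 14 days. The lowest 7-day array fell below the highest saline array, and the 14-day arrays were clear of both earlier groups. The mean log2 signal was 0.80 above saline at 7 days and 1.28 above it at 14 days. The gene passed the detection filter through its 7- and 14-day arrays, so these differences are a description without a test.

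Mrpl16, the gene with the largest rise in hippocampus, rose less in muscle, from 9.80, 9.71, 9.93 and 9.73 after saline to 10.18, 10.11, 10.22 and 10.06 after 7 days (0.35 ± 0.10, adjusted p = 0.0258). At 14 days it read 9.88, 10.29, 10.31 and 10.08, which overlapped saline (0.34, adjusted p = 0.0291). At each time 5 of the 8 single-array omissions ended the call. Mrps26 was also higher at both times (0.22 and 0.27), and Mrpl22, at the wall of the exit tunnel in bacteria, and Mrpl43 at 7 days (0.29 and 0.22).

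Among the falls, Mrpl35 read 8.25, 8.27, 8.10 and 8.05 after saline, 8.06, 7.78, 7.92 and 8.02 after 3 days, 7.45, 7.68, 7.97 and 8 after 7 days, and 7.96, 7.78, 7.80 and 7.67 after 14 days. The AICAR groups of 7 and 14 days were below saline and overlapped the 3-day arrays. The changes were −0.39 ± 0.12 (0.764-fold, adjusted p = 0.0254) and −0.36 ± 0.12 (adjusted p = 0.0358). Mrpl40, of the central protuberance, and Mrps31 were lower at 7 days (−0.32 and −0.28), and Mrpl57 at 14 days (−0.45 ± 0.15, adjusted p = 0.0421), where its arrays overlapped saline.

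**Figure D3:**
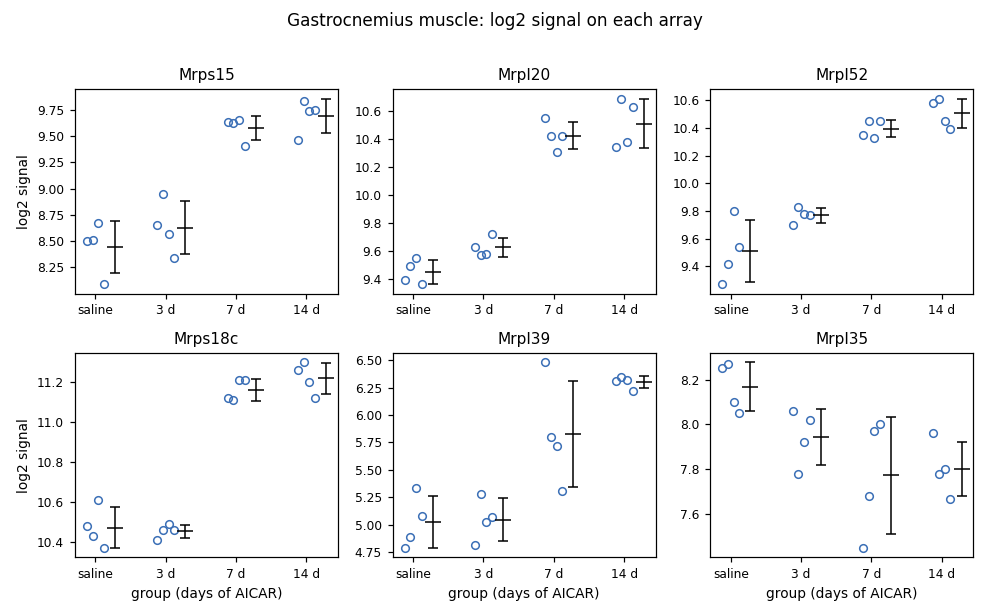
Log2 signal on each muscle array (circles) with the group mean and SD (bars, n = 4) after saline and after 3, 7 and 14 days of AICAR for 6 genes. Mrps15, Mrpl20, Mrpl52 and Mrps18c are higher on every 7- and 14-day array than on every saline and 3-day array, while 1 of the 7-day arrays of Mrpl39 falls within saline and Mrpl35 is lower.

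The other members with known roles did not pass in muscle. At 7 days the changes of Mrps12, Mrps7, Mrps16, Mrps22, Mrpl3, Mrpl11 and Mrpl12 lay between −0.20 and 0.12, and at 14 days between −0.22 and 0.14. Between 14 and 7 days 0 of 70 genes differed (background 0%; 2 genes had an unadjusted p below 0.05, and 444 of all genes). Between the mean of 7 and 14 days and 3 days, 6 were higher and 9 lower, where 24.2% of all genes were called (11.5% higher and 12.6% lower), and the total was 9 without 3-day replicate 3. The 6 include Mrpl39, which is a description without a test as above. Mrps15 was 1.01 ± 0.12 above its 3-day level (adjusted p = 5.76e-06) and Mrpl20 0.84 ± 0.08 (adjusted p = 4.15e-07). Mrps18a fell by 0.32 on the log2 scale (adjusted p = 0.00184), and Mrpl34, a large-subunit protein, by 0.28 (adjusted p = 0.0105).

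Several genes had probes that moved apart. Over all tested probes, 19.7% were called in muscle at 7 days and 18.8% at 14 days. Of 21 genes with several tested probes in muscle, 10 had some but not all probes called at 7 days, 11 had none called and 0 had all probes called the same way. The changes of 2 probes of 1 gene differed by over 1 on the log2 scale in 5 genes at 7 days and 4 at 14 days, Mrpl18 among them. Such counts over all genes with several tested probes are not given here or below. They are therefore not read as a result about the members. The genes named in this paragraph and the next were chosen after their values were seen. For Mrpl13, a large-subunit protein with a bacterial counterpart, the brightest probe read 12.13, 12.02, 11.97 and 11.99 after saline and 11.91, 12.01, 12.11 and 11.93 after 7 days, which overlap (−0.04). Its other probe read 6.68, 7.05, 6.87 and 6.86 after saline, 6.50, 7.14, 7.04 and 6.93 after 3 days, 8.88, 8.65, 9.01 and 8.59 after 7 days, and 8.68, 8.93, 8.52 and 8.78 after 14 days. It rose by 1.92 ± 0.14 (3.78-fold, adjusted p = 4.24e-08) and 1.86 ± 0.14 (3.64-fold, adjusted p = 4.16e-08). Levels of the 2 probes are not compared, since each probe has its own efficiency.

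For Mrpl47, next to the exit tunnel, the other probe read 6.00, 5.70, 5.72 and 5.39 after saline, 5.59, 5.80, 5.34 and 5.40 after 3 days, 7.32, 6.98, 7.42 and 7.19 after 7 days, and 7.26, 7.55, 7.23 and 6.90 after 14 days, a rise of 1.53 ± 0.15 at both times (adjusted p = 1.15e-06 at 7 days). The brightest Mrpl47 probe changed by −0.09 and −0.13 and did not pass. The other probe of Mrpl18 was detected on 0 of 4 saline arrays, so its rise is a bound of at least 1.99-fold at 7 days and at least 2.24-fold at 14 days, beside −0.04 and 0.01 for the brightest. It was detected on 0 of 4 arrays at 3 days too and passed the detection filter through its 7- and 14-day arrays, so it is a description without a test. An Mrpl1 probe rose by 1.03 ± 0.16 and 0.97 ± 0.16, an Mrps25 probe by 0.80 ± 0.10 at both times and an Mrpl51 probe by 0.61 ± 0.13 and 0.57 ± 0.13, while the brightest probes of these genes did not pass. The position of each probe within its transcript was not analysed here.

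**Figure D4:**
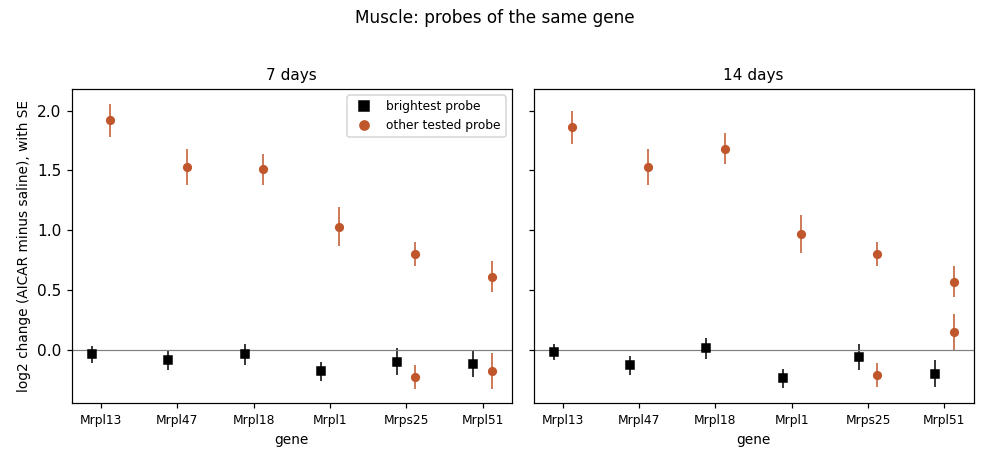
Log2 change from saline in muscle after 7 and 14 days, with SE, of the brightest tested probe (black squares) and of the other tested probes (orange circles) of 6 genes. The brightest probes lie near 0, while 1 other probe of each gene lies between 0.57 and 1.92.

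In hippocampus, where 27.1% of all tested probes were called at 7 days and 29.5% at 14 days, 19 genes had several tested probes, and at each of 7 and 14 days 1 had all probes called the same way, 10 had none called, 7 had some called and 1 had probes called both ways. That gene was Mrpl49, a large-subunit protein specific to mitochondria. Its brightest probe read 10.90, 10.88, 10.93 and 10.96 after saline and 10.53, 10.60, 10.64 and 10.71 after 7 days, a fall without overlap (−0.30 ± 0.06, adjusted p = 0.00291). Another read 5.49, 5.50, 5.96 and 5.59 after saline and 6.40, 6.05, 6.39 and 5.95 after 7 days, a rise with overlap (0.57). It was near the detection limit, detected on 11 of 16 hippocampal arrays, 3 of 4 after saline and 0 of 4 at 3 days. Because it passed the detection filter through its 7- and 14-day arrays, its rise is a description without a test. At 14 days the brightest probe changed by −0.26 and this other probe by 0.40, and 1 more probe fell by 0.39 on the log2 scale. For Mrps25, whose brightest probe did not pass (−0.13), the probe that rose in muscle rose here by 0.59 ± 0.16 (adjusted p = 0.0127). Its remaining probe read 7.50, 7.59, 7.46 and 7.45 after saline and 7.95, 7.93, 7.97 and 8 after 7 days, clear of saline (0.46 ± 0.09, adjusted p = 0.00217), and did not pass in muscle (−0.23). For Mrps11 the brightest probe rose by 0.41 ± 0.08 (adjusted p = 0.00163) and 0.36 ± 0.08, whereas its other probe changed by −0.08 and −0.05. The head-to-head partner Mrpl46 changed by −0.07 ± 0.08 and −0.06 in hippocampus and did not pass.

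The calls in both tissues were set side by side. Of the 69 genes tested in both, Mrpl16 and Mrpl52 rose in both at 7 days, which is 12.5% of the 16 hippocampal and 25% of the 8 muscle rises, and Mrpl35 fell in both (8.33% of 12 and 25% of 4). At 14 days Mrpl16 and Mrpl52 again rose in both (12.5% of 16 and 33.3% of 6), and Mrpl35 and Mrpl57 fell in both (18.2% of 11 and 100% of 2). Over all genes tested in both tissues, 20.7% of hippocampal and 28.8% of muscle rises and 14.4% and 25% of falls were shared at 7 days, and 20.3% and 29.3% of rises and 13.5% and 30.4% of falls at 14 days. Mrpl20 was called in opposite directions at 7 days. Its hippocampal arrays read 9.92, 9.82, 9.79 and 9.70 after saline and 9.53, 9.53, 9.59 and 9.52 after 7 days (−0.27 ± 0.08, adjusted p = 0.0273), while muscle rose as above.

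The change from saline itself differed between the tissues for 19 of 69 genes at 7 days (7 more positive and 12 more negative in muscle), where 16% of all genes were called (7.03% and 8.94%), and for 16 at 14 days (7 and 9), where 15.6% were called (6.94% and 8.71%). The difference, muscle change minus hippocampal change, was 1.24 ± 0.12 for Mrpl20 at 7 days (adjusted p = 1.75e-08) and 1.19 at 14 days. Mrps27, which rose in hippocampus and changed by −0.29 ± 0.13 in muscle, differed by −1.21 ± 0.19 (adjusted p = 3.65e-05) and −1.03. Mrpl16 differed by −0.76 ± 0.14 (adjusted p = 0.000364) and −0.84. Mrps15 differed by 0.74 ± 0.24 (adjusted p = 0.033) and 0.87, Mrpl52 by 0.62 ± 0.13 and 0.70, and Mrps18c by 0.60 ± 0.11 and 0.60. Mrpl55 differed by −0.66 ± 0.20 and −0.79, and Mrps21 by −0.63 ± 0.13 and −0.68. With median scaling the split was 1 more positive and 46 more negative at 7 days and 1 and 26 at 14 days, without the shares of all genes beside it. Mrpl20 at 0.74 and 0.84 was still past the threshold and Mrpl52, Mrps15 and Mrps18c were no longer past it.

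Between the tissues after saline, most mitoribosomal messages were higher in muscle than in hippocampus. With all 32 arrays normalized together, 52 of 71 genes were higher in muscle and 8 lower, where 81.9% of all genes were called (42% higher and 39.9% lower). The median difference was 0.87, beside 0.04 over all genes. By symbol, 34 of 44 Mrpl genes were higher and 6 lower (median 0.92), and 18 of 27 Mrps genes were higher and 2 lower (median 0.84). With median scaling 62 were higher and 2 lower, with medians of 1.33 and 0.25 over the members and all genes. In bulk tissue, more cells of a type and more RNA per cell cannot be told apart.

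Mrps28, a small-subunit protein, read 7.72, 7.97, 8.08 and 8.25 in hippocampus and 11.27, 11.24, 11.18 and 11.15 in muscle, the largest difference of the 71 (3.21 ± 0.09, 9.22-fold, adjusted p = 1.17e-23). Mrpl16 read 6.94, 6.77, 6.70 and 6.69 in hippocampus and 9.76, 9.68, 9.89 and 9.69 in muscle (2.98 ± 0.10, 7.91-fold, adjusted p = 1.12e-21). Mrps21 read 9.23, 9.38, 9.53 and 9.44 in hippocampus and 11.94, 12.08, 12.22 and 12.25 in muscle (2.73 ± 0.09, 6.61-fold). Mrpl54, Mrpl55 and Mrps15 were 6.56-fold, 5.96-fold and 5.4-fold higher.

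Mrpl49 went the other way, at 11, 10.98, 11.04 and 11.07 in hippocampus and 9.09, 9.05, 8.80 and 8.93 in muscle by its brightest probe (−2.06 ± 0.08, 0.24-fold, adjusted p = 1.05e-20). Another of its probes, near the detection limit in hippocampus, was 0.99 ± 0.17 higher in muscle. Mrpl57, a small large-subunit protein, read 8.04, 7.82, 7.74 and 8.02 in hippocampus and 6.41, 6.54, 5.90 and 6.54 in muscle (−1.56 ± 0.13, 0.34-fold, adjusted p = 3.8e-12). Mrps34 was lower in muscle by 0.74 on the log2 scale (−0.74 ± 0.08), which became −0.03 with median scaling. Mrpl10, Mrpl9 and Mrpl20 were lower by smaller amounts (−0.54, −0.44 and −0.43), and these turned to 0.11, 0.09 and 0.10 with median scaling.

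Of the genes with known roles, Mrps18b, Mrps16, Mrps7, Mrps18a, Mrps18c, Mrpl12, Mrpl3 and Mrpl11 were higher in muscle, by 0.25 (Mrpl11) to 1.62 (Mrps18b) on the log2 scale. Mrps12 read 11.81, 11.66, 11.76 and 11.62 in hippocampus and 11.62, 11.65, 11.51 and 11.60 in muscle, which overlap (−0.12 ± 0.07, adjusted p = 0.0954). Mrps22 did not pass either (0.10 ± 0.09, adjusted p = 0.313).

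**Figure D5:**
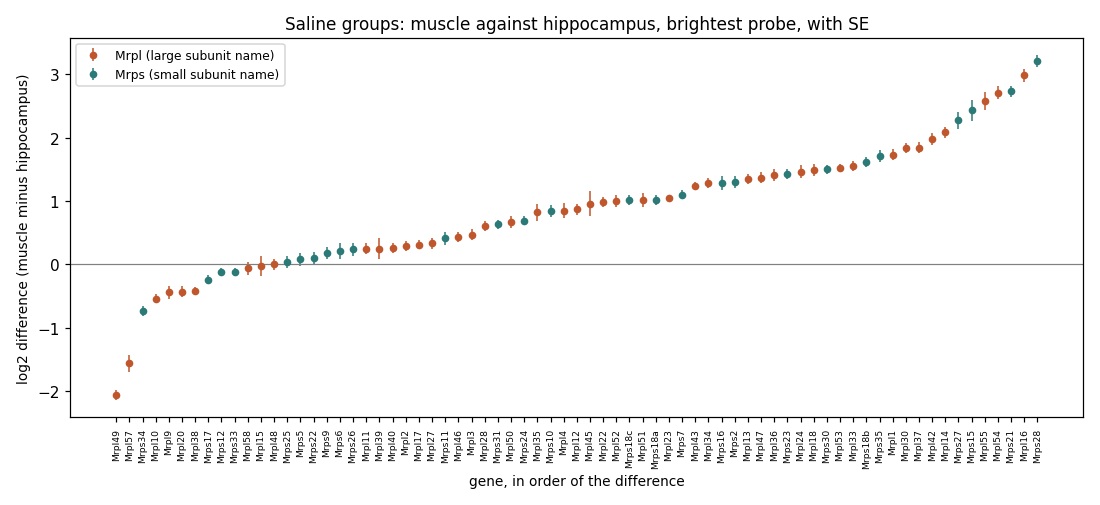
Log2 difference between muscle and hippocampus after saline, with SE, for the brightest probe of 71 genes in rank order, coloured by symbol (Mrpl or Mrps). The genes run from Mrpl49 at −2.06 to Mrps28 at 3.21, and most genes of both symbols lie above 0.

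The other genes that make and serve the mitoribosome were counted from lists of known members. The counts stand beside 12.1% of all genes higher and 15.4% lower in hippocampus at 7 days, 12.6% and 17.5% there at 14 days, 10.3% and 8.55% in muscle at 7 days, and 10.4% and 7.48% at 14 days. Of 17 assembly factors in hippocampus, 3 rose and 6 fell at 7 days and 2 rose and 7 fell at 14 days. Nsun4, an RNA methyltransferase of assembly, fell by 0.36 and 0.33, and the helicase Ddx28 by 0.34 and 0.54, while the guanosine triphosphatase Mtg1 rose by 0.88 ± 0.16 and 0.57 ± 0.16. In muscle 2 of 17 rose and 1 fell at 7 days and 2 rose and 2 fell at 14 days, with Mtg1 up by 0.82 ± 0.14 and 0.95 ± 0.14 and Eral1, a chaperone of small-subunit RNA, down (−0.30 and −0.27).

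Of 15 tRNA synthetase and amidotransferase genes in hippocampus, 0 rose and 3 fell at 7 days and 0 rose and 4 fell at 14 days. Gatb, Gatc and Qrsl1, the subunits of the amidotransferase that makes mitochondrial glutaminyl-tRNA, changed by −0.40, −0.37 and −0.33 at 7 days and by −0.47, −0.44 and −0.33 at 14 days, all past the test. Sars2, the head-to-head neighbour of Mrps12, changed by −0.34 at 7 days (adjusted p = 0.122) and by −0.50 ± 0.16 at 14 days (adjusted p = 0.0237). In muscle 1 of 14 fell at each time and 0 rose.

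Of the translation factors, 3 of 13 rose and 0 fell in hippocampus at 7 days and 1 rose and 1 fell at 14 days, and in muscle 3 of 15 rose and 3 fell at 7 days and 3 and 2 at 14 days. The release factor gene Mtrf1l rose in muscle by 0.90 ± 0.09 (adjusted p = 2.22e-06) and 1 ± 0.09 (adjusted p = 5.84e-07), and Lrpprc, which stabilizes mitochondrial messages, by 0.63 and 0.62, while the elongation factor Tufm fell by 0.29 and 0.36. Lrpprc's partner Slirp rose in hippocampus by 0.53 ± 0.09 and 0.51 ± 0.09. Of the small-subunit proteins named outside the Mrps series, Ptcd3 rose in hippocampus (0.89 and 0.58) and in muscle (0.46 and 0.51), and Dap3 fell in hippocampus (−0.32 and −0.26).

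Of 8 regulators of mitochondrial biogenesis tested in hippocampus, 0 rose and 3 fell at 7 days and 0 rose and 4 fell at 14 days, Nrf1 by 0.31 and 0.29 and the GABP subunit gene Gabpb1 by 0.50 and 0.49. In muscle 0 of 9 rose, and 1 fell at 7 days and 2 at 14 days. Of 10 markers of mitochondrial content, 5 rose and 2 fell in hippocampus at 7 days and 6 and 3 at 14 days, including citrate synthase (Cs, 0.56 and 0.53), and in muscle 3 rose and 0 fell at each time, with the chaperonin Hspe1 at 1.17 and 1.07. After saline all 10 content markers and 13 of 15 translation factors were higher in muscle, where 42% of all genes were. Cytosolic ribosomal protein genes, for comparison, had 20 higher and 2 lower of 58 in hippocampus at 7 days and 22 and 4 at 14 days, and 7 and 1 of 59 and 9 and 1 in muscle.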

How the data were processed

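Bead arrays (Illumina MouseRef-8) measured 32 samples. Per the labels, RNA was purified on columns, amplified with biotin and stained with streptavidin-Cy3. BeadStudio 1.6.0 is the software in the submitters' processing notes. The deposited signal is a linear intensity that the authors, per the file headers, left without normalization, and next to it stands a detection p-value, also deposited. The authors' series values have the unit of a score: the log2 intensity of a probe on its array after subtraction of the array's mean and division by its SD, as found by recomputing them. Symbols are those of the platform annotation (23978 of 25697 probes had 1 symbol, 0 had several and 1719 had none). RefSeq held all 76 member genes by Entrez ID with 0 symbols changed.

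Intensities were corrected and quantile normalized with neqc (normexp from the detection p-values, offset 16) in limma 3.58.1 under R 4.3.3, within each tissue, or over all 32 arrays for muscle against hippocampus in saline. All tested probes, 13659 in hippocampus and 12977 in muscle, entered lmFit with the group as the factor, followed by contrasts.fit and eBayes. Two-sided p-values were adjusted by Benjamini and Hochberg across every tested probe and called below 0.05 (13 comparisons). Differences of effect between tissues treated the arrays as independent. Errors of changes are SE. Precision is limited by the 4 arrays per group and by signal over background, with 11695 to 13225 probes detected per array.

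Named genes were, for each comparison with saline, up to 6 of the largest rises and falls among called brightest probes (where fewer than 3 passed, the 3 with the smallest p), up to 6 each way for tissue, up to 5 each way for durations and tissue differences, a panel of 12 genes with known roles, genes with probes called both ways and up to 3 called genes per list; the text gives them in part. Other called members are named by symbol and range. Members and lists were chosen with earlier results of these data known. The procedure was tested on simulated data. Alternatives were no background correction, median scaling, the deposited series values, no filter, probes detected on all arrays, trended and robust variance, the mean of a gene's probes, a replicate block and leaving out each array.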

Additional observations from a re-analysis of the deposited data

Results flagged for a closer look

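Of 75 groups of 4 arrays examined for the genes shown, 5 held an array whose gap to the nearest other was too large a share of the group's range by Dixon's test at the 95% level, which chance gives in about 1 in 20 groups. In hippocampus they were Mrpl16 at 7.97 in 7-day replicate 1 (others 8.04 to 8.05), Mrps23 at 9.44 in saline replicate 2 (others 9.62 to 9.65), Mrps27 at 6.40 in saline replicate 4 (others 6.08 to 6.12) and Mrpl30 at 9.71 in 14-day replicate 2 (others 9.56 to 9.58). In muscle it was Mrps15 at 9.41 in 7-day replicate 4 (others 9.62 to 9.65).

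The change from saline differed between the tissues for some genes by the test of the difference itself, muscle change minus hippocampal change on the log2 scale. At 7 days the change was more positive in muscle for Mrpl20 (1.24), Mrps15 (0.74), Mrpl52 (0.62), Mrps18c (0.60), Mrpl22 (0.42), Mrps7 (0.31), Mrps12 (0.27) and the other probe of Mrpl47 (1.64). It was more negative for Mrps27 (−1.21), Mrpl16 (−0.76), Mrpl55 (−0.66), Mrps21 (−0.63), Mrpl27 (−0.56) and the brightest probe of Mrpl47 (−0.34). At 14 days the values were 1.19 for Mrpl20, 0.87 for Mrps15, 0.70 for Mrpl52, 0.60 for Mrps18c, 0.44 for Mrps7 and 1.75 for the other Mrpl47 probe. On the negative side they were −1.03 for Mrps27, −0.84 for Mrpl16, −0.79 for Mrpl55, −0.68 for Mrps21, −0.65 for Mrpl36 and −0.35 for the brightest Mrpl47 probe. The 2 probes of Mrpl47 were thus called in opposite directions at both times. In hippocampus the other Mrpl47 probe was near the detection limit, detected on 7 of 16 arrays, which limits the hippocampal part of its difference. The positive differences depend on the scaling. With median scaling Mrpl20 stayed past the threshold, Mrpl52, Mrps15 and Mrps18c did not, and Mrpl22, Mrps12 and Mrps7 changed sign at 7 days.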

How the results depend on the processing

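Median scaling moved the counts of called genes to 12 (hippocampus, 14 days), 23 and 31 (muscle, 7 and 14 days) and 47 and 27 (tissue difference, 7 and 14 days). It turned Mrpl57 at 7 days (0.01) and, for 7 and 14 against 3 days, Mrpl4 (0.05), an Mrpl49 probe (0.06) and Mrps18a (0.07) in hippocampus, Mrpl10 (0.11), Mrpl20 (0.10) and Mrpl9 (0.09) between tissues, and Mrpl22 (−0.09), Mrps12 (−0.17) and Mrps7 (−0.20) in the 7-day tissue difference. For muscle at 14 days the count was 15 with no background correction, 25 with the deposited series values, 14 with trended and robust variance and 14 with the mean of all probes. At 7 days it was 20 with the series values, and for 7 and 14 against 3 days 24 with no background correction, 25 with the series values and 23 with the mean of all probes. The shares of all genes called under these settings are not given here, so the counts describe the processing and not the members. The cause was not tested.

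Leaving out 1 array gave counts of 21 to 23, 21 to 25 and 23 to 30 in hippocampus (7 days, 14 days, both against 3 days), 6 to 10, 5 to 10 and 9 to 18 in muscle, 59 to 60 between tissues and 15 to 20 and 11 to 16 for the tissue differences. Of 1244 such repeats of 118 named results past the threshold, 114 lost the call and 0 reversed. By the naming rule the 118 take in Mrpl39 in muscle and the Mrpl49 probe that rose in hippocampus, which are descriptions without a test. In hippocampus the call of Mrpl35 was lost in 7 of 8 at 7 days (−0.46 to −0.31) and at 14 days without 14-day replicate 4 (−0.38), that of Mrpl57 in 6 of 8 at 7 days (−0.34 to −0.24) and that of Mrpl58 in 4 of 8 at 14 days (−0.36 to −0.26). In muscle Mrpl35 lost it in 4 of 8 at 7 days (−0.46 to −0.28) and 5 of 8 at 14 days (−0.42 to −0.32), Mrps18a in 6 of 8 at 7 days (−0.28 to −0.22) and Mrpl57 in 6 of 8 at 14 days (−0.60 to −0.35). Mrpl16 lost it there in 5 of 8 at each time (0.32 to 0.40 and 0.29 to 0.43). The tissue difference of Mrps15 at 7 days lost it in 6 of 16 (0.52 to 0.85). Of the 118, median scaling kept the call and direction of 78, the series values 108, no background correction 115, no filter 111, trended variance 114 and, of 110 that could be fitted, probes detected on all arrays 110.

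Same-numbered arrays did not clearly deviate together (correlations from −0.37 to 0.19 in hippocampus, −0.25 to 0.18 in muscle and −0.14 to 0.14 between tissues). Low correlations cannot exclude a pairing of samples that share little deviation. With a replicate block the counts were 25, 24 and 27 in hippocampus, 10, 6 and 14 in muscle, 60 between tissues and 19 and 16 for the tissue differences, and 113 of 118 named calls held. Signal over background limits the change of Mrpl39, which was detected on 8 of 16 muscle arrays.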

Other observations

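Genes of the transcription and copying of mitochondrial DNA, which supply the ribosomal RNAs, were also counted from a list. In hippocampus 2 of 12 rose and 1 fell at 7 days, and 2 rose and 0 fell at 14 days. Of all genes there, 12.1% were higher and 15.4% lower at 7 days, and 12.6% and 17.5% at 14 days. Ssbp1, the mitochondrial single-stranded DNA-binding protein, rose by 0.86 and 0.82, and Tfam, which packages and transcribes mitochondrial DNA, by 0.52 and 0.37. In muscle 4 of 13 rose and 2 fell at 7 days, and 3 rose and 3 fell at 14 days. Of all genes in muscle, 10.3% were higher and 8.55% lower at 7 days, and 10.4% and 7.48% at 14 days. Ssbp1 rose there by 0.45 and 0.40 and Trmt10c, a subunit of mitochondrial RNase P, by 0.50 and 0.65, while the elongation factor Tefm fell by 0.47 and 0.43. After saline 11 of 13 were higher in muscle and 1 lower, where 42% and 39.9% of all genes were, with Tfb2m at 2.40 and Tfam at 1.86 on the log2 scale.

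Twnk, the helicase whose gene starts 116 bases from Mrpl43, changed in muscle by −0.47 at 7 days (adjusted p = 0.0589) and by −0.51 ± 0.17 at 14 days (adjusted p = 0.0422). Mrpl43 itself changed by 0.22 (adjusted p = 0.0452) and 0.20 (adjusted p = 0.0643). This pair was chosen after its values were seen.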
